A study of Mus musculus with 12 samples.

Results

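Rexo2 and 9 nuclear genes whose proteins degrade, tail or protect RNA inside mitochondria were followed in mouse heart. The 10 genes were chosen by name: Rexo2 with the mitochondrial degradosome, an endonuclease, the enzymes of the poly(A) tail and RNA-binding stabilisers. Each matched 1 feature among the 54751 features of the deposited table, and all 10 passed the filter on low values (a mean of at least 10 normalised counts), which left 18250 features. Total RNA was sequenced from whole hearts of C57BL/6N mice aged 52 weeks, with 3 libraries from knockout mice and 3 from control mice. Control mice carried Rexo2 alleles flanked by loxP sites (Rexo2loxP/loxP). Knockout mice carried the same alleles together with an allele labelled +/Ckmm. Ckmm names muscle creatine kinase, and Cre recombinase under its promoter deletes floxed genes in cardiomyocytes and skeletal muscle fibres but not in other cells of the heart; the labels do not state more of this allele. The labels do not tie a library to an animal, so the p-values rest on variation between libraries, part of which may be technical. A library is called by its group and the number in its column name, such as knockout 492. Mitochondrial RNA-end libraries of the series, 3 per genotype, were not analysed here.

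Messenger, ribosomal and transfer RNAs of mitochondria are made as long transcripts from both strands of mitochondrial DNA (mtDNA), and their amounts depend on decay and protection as well as on transcription. SUPV3L1, a helicase, unwinds RNA for PNPT1, a phosphorolytic exonuclease, in the degradosome, and REXO2 degrades the short fragments that remain, including dinucleotides. MTPAP adds poly(A) tails, PDE12 removes them, and the LRPPRC and SLIRP proteins form a complex that binds and stabilises most mitochondrial messenger RNAs. The series title concerns dinucleotides, REXO2 and promoter choice in mitochondria, so the comparison asks whether the rest of this machinery differs in expression between Rexo2 knockout and control hearts.

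None of the 10 genes passed the test for a difference between knockout and control hearts. The ranges of the groups overlapped in all 10, whereas they did not overlap in 9.51% of all tested features. limma called 0 of the 10 at a Benjamini-Hochberg adjusted p under 0.05, against 0.0219% of all tested features, and 0 of 10 had an unadjusted p under 0.05, against 3.7% of all tested features. On recovered reads, edgeR called 0 of the 10 and DESeq2 called 0 of the 8 to which it gave an adjusted p (not Pnpt1 and Slirp), and both had 0 of the 10 at an unadjusted p under 0.05. Scaling to equal totals gave 1 at an unadjusted p under 0.05, Rexo2. That scaling moved the median log2 fold change of all tested features to -0.069, and limma then called 37 features, 36 of them lower. The share of 3.7% belongs to the main fit and was not computed for these alternatives. The authors' deposited table, which calls 0.437% of the features it gives an adjusted p, called 0 of the 8 members with such a value. The largest differences were 11.4% lower for Rexo2 and 8.95% higher for Pnpt1 in knockout hearts, and 5 genes lay above 0 and 5 below. Their median log2 fold change was 0.0033, beside 0.00056 over all tested features.

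Recovered depth ranged from 41979163 to 50764023 reads per library, and a member held between 87 and 2186 reads in a library. mtDNA features took 71.5% to 71.9% of reads in knockout libraries and 69.4% to 70.0% in control libraries, without overlap. Control 490 stood apart on the first principal component, at -30.1 where the other libraries lay between -5.63 and 16.7. On the second, knockout 492 lay at -25.5 and knockout 501 at 25.9, and the other 4 libraries between -2.47 and 2.64. Cardiomyocyte markers (Myh6, Actc1, Tnni3, Myl2 and Ckm) were detected in every library. Their summed level was 385324 to 417826 normalised counts in knockout and 388051 to 429784 in control libraries. Myh6, at 271557 on average, made up most of that sum. No pair of libraries of 1 group agreed within counting noise over all tested features (chi-square divided by its degrees of freedom, 3.53 to 15.2). This measure includes the mtDNA features, which hold most reads, and their part in it was not tested.

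RefSeq start-site windows of the GRCm38.p6 build, from 250 bases before to 50 after the annotated start, were at hand for 8 of the 10 genes, not for Lactb2 and Mtpap. The 2 windows below belong to Rexo2, the targeted gene, and to Slirp, the gene with the most matches to the motifs searched. Capitals mark matches on either strand to the core site of the ETS factor GABP (CCGGAAG), the YY1 site (AAGATGGC) or the core of the NRF-1 site (GCATGCGC), which occur at many nuclear genes for mitochondrial proteins. The sequences run 5′ to 3′ on the strand of the gene.
Rexo2, chr9:48480562-48480861, minus strand: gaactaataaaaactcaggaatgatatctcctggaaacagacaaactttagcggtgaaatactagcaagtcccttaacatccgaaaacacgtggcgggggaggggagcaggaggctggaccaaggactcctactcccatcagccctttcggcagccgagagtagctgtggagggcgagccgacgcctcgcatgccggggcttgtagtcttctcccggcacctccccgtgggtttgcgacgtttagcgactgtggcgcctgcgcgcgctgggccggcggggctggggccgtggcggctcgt
Slirp, chr12:87443646-87443945, plus strand: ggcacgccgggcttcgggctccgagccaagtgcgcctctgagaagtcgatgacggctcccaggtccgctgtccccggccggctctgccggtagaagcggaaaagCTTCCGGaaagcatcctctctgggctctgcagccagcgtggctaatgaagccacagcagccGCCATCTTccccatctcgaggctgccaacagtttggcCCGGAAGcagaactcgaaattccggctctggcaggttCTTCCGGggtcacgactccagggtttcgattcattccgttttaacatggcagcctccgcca

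The Slirp window held 3 GABP core matches and 1 YY1 match, with no overlap between them. At least 3 GABP core matches occurred in 0.248% of the 27025 genes with a window. At least 1 was present for 3 of the 8 genes, Slirp, Pde12 and Grsf1, and for 9.93% of all genes. A YY1 match was present for 1 of the 8, Slirp, and for 3.19% of all genes. The core of the NRF-1 site (GCATGCGC) was present for 1 of the 8, Angel2, and for 3.05% of all genes. Rexo2 held none of these motifs in its window, which had a G+C content of 61.0%. The median over the 12 windows of the 8 genes was 60.8%, and over all 32851 windows it was 52.7%. These matches describe letters in 1 window per start site and are not evidence of binding.

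Rexo2 (ENSMUSG00000032026.7, GRCm38 chromosome 9, 48468512 to 48480611) encodes the oligoribonuclease that gives the knockout its name. It held 274, 288 and 314 normalised counts in knockout 492, 499 and 501, against 330, 368 and 293 in control 490, 498 and 502. Knockout 492 was the lowest and control 498 the highest library, and control 502 lay within the knockout range. On the log2(value + 1) scale the log2 fold change was -0.17 (SE 0.10, limma adjusted p = 1.00), and its 95% interval ran from -0.39 to 0.04, or from -23.6% to 2.88%. Without control 498 the log2 fold change was -0.094, and without control 502 it was -0.26. The difference stayed below 0 in all 18 alternatives. Those that changed only the filter or the limma moderation cannot move a fold change, so the tally overstates the independent checks. A scaling to equal totals gave -0.24 (limma adjusted p = 0.576), where the median of all tested features moved to -0.069. In the authors' deposited table Rexo2 was at -0.18 on the log2 scale, with an adjusted p of 1.00.

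The Rexo2 count covers the whole gene, and the labels do not give the deleted exons, so it does not check the genotype labels. Rexo2 transcripts of cells outside the heart muscle lineage are counted in the same value. In such bulk samples, fewer cells of a type and less RNA per cell cannot be told apart. Summed fibroblast markers (Col1a1, Col3a1, Dcn, Pdgfra) were at 6246 to 6862 normalised counts in knockout and 6444 to 6542 in control libraries. Endothelial markers (Pecam1, Cdh5, Kdr) summed to 7162 to 7573 in knockout and 6785 to 8064 in control libraries. Macrophage markers (Cd68, Csf1r, Adgre1, C1qa) lay between 1183 and 1240 in knockout and between 1032 and 1208 in control libraries. Smooth muscle markers (Myh11, Tagln, Acta2) gave 1205 to 1418 in knockout and 1070 to 1462 in control libraries, and erythroid markers (Hba-a1, Hbb-bs) 11286 to 15459 in knockout and 11302 to 14933 in control libraries. The adipocyte markers Adipoq and Plin1 were near 0, at 0 to 4.51 counts in knockout and 0.894 to 1.02 in control libraries. Every marker sum overlapped between the groups. A sum mainly follows its most abundant genes, such as Dcn among the fibroblast markers, at 4071 on average. limma called 0 of the markers that passed the filter, which Adipoq and Plin1 did not, and the part of these cell types in the Rexo2 values was not tested.

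**Figure D1:**
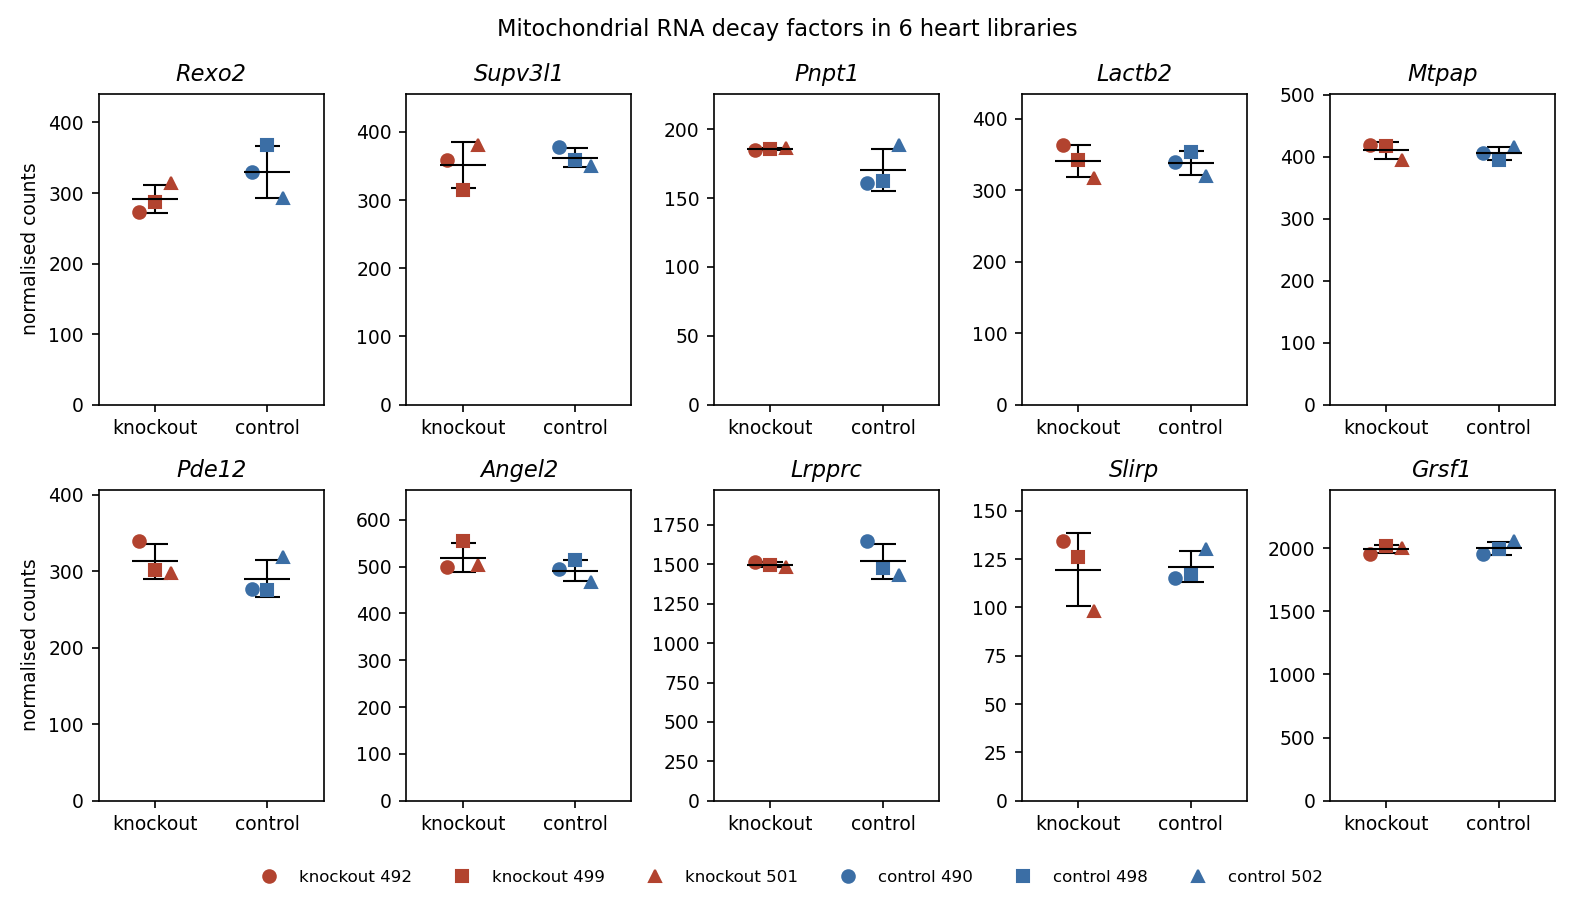
Normalised counts of each of the 10 genes (vertical axes from 0) in the 3 knockout and 3 control libraries, with black marks at the mean and bars of 1 SD. The groups overlap in all 10 panels; in Pnpt1 the 3 knockout libraries lie between 185 and 186 counts, within the control range of 161 to 188.

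In the degradosome, the helicase gene Supv3l1 (ENSMUSG00000020079.15, chromosome 10, 62429221 to 62451515) had 359, 314 and 380 normalised counts in knockout 492, 499 and 501, against 377, 358 and 350 in control 490, 498 and 502. The knockout libraries included both the lowest and the highest value. Its log2 fold change was -0.047 (SE 0.090, limma adjusted p = 1.00). It was 0.030 without knockout 499. Supv3l1 shares 2194 annotated bases with the long noncoding gene 4930507D05Rik, which held 4.63 counts in knockout and 2.90 in control libraries on average, and 1176 with Gm30322. Whether counting used strand is not given in these sources.

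Pnpt1 (ENSMUSG00000020464.15, chromosome 11, 29130129 to 29161827), for the exonuclease partner, had 185, 186 and 186 normalised counts in knockout 492, 499 and 501, against 161, 163 and 188 in control 490, 498 and 502. Control 490 and 498 lay below all knockout libraries, and control 502 above them. The log2 fold change was 0.12 (SE 0.11, limma adjusted p = 1.00). It was 0.083 without control 490, 0.20 without control 502 and 0.054 under equal totals. The relative SD among the knockout libraries was 0.413%, below the 7.48% that counting about 179 reads gives, so these 3 values lay closer together than counting error alone would place them.

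Supv3l1 over Pnpt1 was compared within each library, since the proteins act together. The log2 ratio of normalised counts was 0.91 ± 0.14 in knockout and 1.08 ± 0.17 in control libraries (SD, n = 3 each), a difference of -0.17 with overlap (exact permutation test, 2-sided, p = 0.3, and 0.75 adjusted over 5 such ratios). It was -0.093 without knockout 499, -0.10 without control 490 and -0.27 without control 502. With 3 libraries against 3 the smallest p that the exact permutation test can give is 0.1.

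The endonuclease gene Lactb2 (ENSMUSG00000025937.6, chromosome 1, 13625893 to 13660583), whose product cleaves single-stranded mitochondrial RNA, had 363, 343 and 317 normalised counts in knockout 492, 499 and 501, against 340, 353 and 321 in control 490, 498 and 502. Its log2 fold change was 0.012 (SE 0.086, limma adjusted p = 1.00). Leaving out knockout 492 gave -0.034, leaving out control 502 gave -0.026, and scaling to equal totals gave -0.058.

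**Figure D2:**
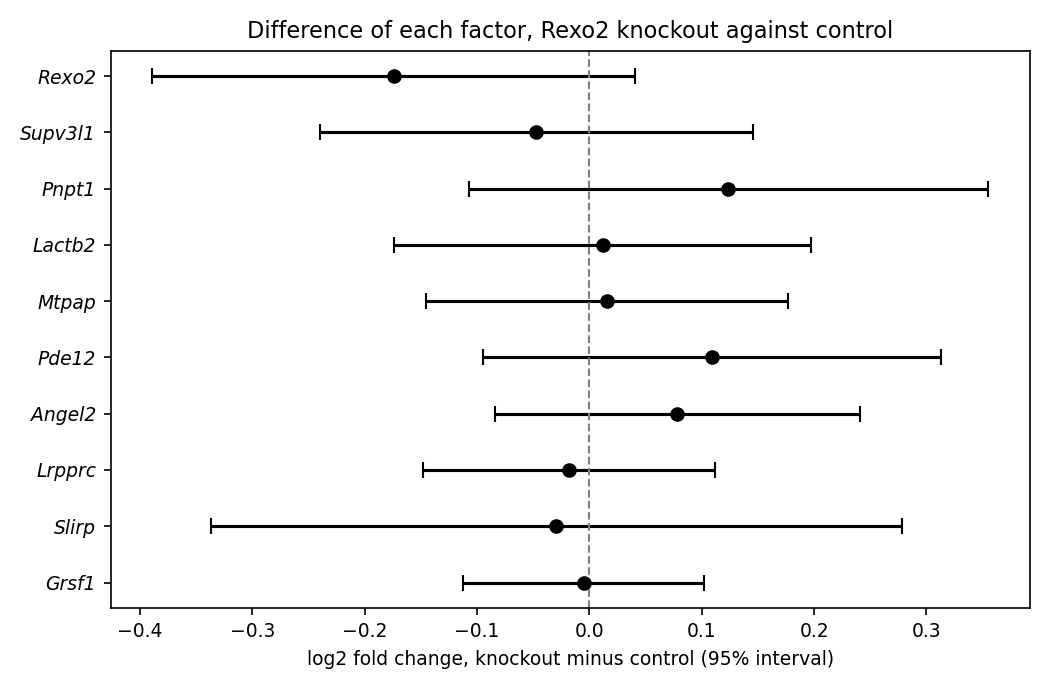
Log2 fold change of each gene (horizontal axis, knockout minus control, points) with its 95% interval from limma (bars). All 10 intervals include 0; the narrowest is that of Grsf1, -0.11 to 0.10, and the widest that of Slirp, -0.34 to 0.28.

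Among the enzymes of the poly(A) tail, the polymerase gene Mtpap (ENSMUSG00000024234.7, chromosome 18, 4375589 to 4399888) had 419, 418 and 395 normalised counts in knockout 492, 499 and 501, against 407, 395 and 416 in control 490, 498 and 502. The highest library exceeded the lowest by 1.06-fold. The log2 fold change was 0.016 (SE 0.075, limma adjusted p = 1.00), and its sign turned without control 498 (-0.0040) and under equal totals (-0.054).

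Pde12 (ENSMUSG00000043702.9, chromosome 14, 26664117 to 26669846), for the enzyme that removes poly(A) tails in mitochondria, had 339, 302 and 298 normalised counts in knockout 492, 499 and 501, against 277, 275 and 318 in control 490, 498 and 502. As with Pnpt1, control 490 and 498 were lower than every knockout library while control 502 was not. The log2 fold change was 0.11 (SE 0.095, limma adjusted p = 1.00). It was 0.050 without knockout 492, 0.18 without control 502 and 0.039 under equal totals. The microRNA gene Mir7672 lies inside Pde12 and was listed at 0 in both groups.

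Angel2 (ENSMUSG00000026634.16, chromosome 1, 190925108 to 190946963) belongs to the same nuclease family as Pde12 and is grouped here with the deadenylases. It had 499, 554 and 504 normalised counts in knockout 492, 499 and 501, against 494, 513 and 467 in control 490, 498 and 502. Knockout 499 was the highest library and control 502 the lowest. Its log2 fold change was 0.078 (SE 0.075, limma adjusted p = 1.00). It was 0.031 without knockout 499, 0.042 without control 502 and 0.0082 under equal totals.

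The genes for tail addition and removal were compared as Mtpap over Pde12, a ratio of counts that measures neither activity. Its log2 value was 0.39 ± 0.083 in knockout and 0.48 ± 0.088 in control libraries (SD, n = 3 each). The difference was -0.093 with overlap (exact permutation p = 0.3, adjusted 0.75). Leaving out knockout 492 gave -0.049, control 490 gave -0.060 and control 502 gave -0.14. Angel2 over Pde12 was at 0.73 ± 0.16 in knockout and 0.76 ± 0.18 in control libraries, a difference of -0.031 (exact permutation p = 0.8, adjusted 1.00). That sign turned without knockout 492 (0.056), control 490 (0.0056) or control 498 (0.037).

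Of the stabilisers, Lrpprc (ENSMUSG00000024120.12, chromosome 17, 84705247 to 84790786) had 1515, 1496 and 1483 normalised counts in knockout 492, 499 and 501, against 1646, 1479 and 1435 in control 490, 498 and 502. Control 490, which stands apart on the first principal component, was the highest, and the other 5 libraries lay within 1435 to 1515 counts. The log2 fold change was -0.018 (SE 0.060, limma adjusted p = 1.00). It was 0.040 without control 490 and 0.0091 when libraries were scaled to equal totals without mtDNA features.

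Slirp (ENSMUSG00000021040.15, chromosome 12, 87443896 to 87449924), for the small RNA-binding partner of LRPPRC, had 134, 126 and 98.1 normalised counts in knockout 492, 499 and 501, against 115, 118 and 130 in control 490, 498 and 502. Knockout libraries again included the highest and the lowest value, which were 1.37-fold apart, beside 1.34-fold for Rexo2. The log2 fold change was -0.029 (SE 0.14, limma adjusted p = 1.00). Its sign turned without knockout 501 (0.10) or control 502 (0.024). With a mean of 121 reads, Slirp was the least covered of the 10 genes, and with its SE an increase of less than 23.7% could not reach an unadjusted p of 0.05. Slirp also shares 122 annotated bases with Nrp and 15 with Snw1, so reads in these stretches may not be separated.

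Slirp over Lrpprc, the components of 1 complex, had a log2 ratio of -3.65 ± 0.22 in knockout and -3.64 ± 0.19 in control libraries (SD, n = 3 each), a difference of -0.011 (exact permutation p = 1.00). The difference was 0.12 without knockout 501 and 0.083 without control 502.

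Grsf1 (ENSMUSG00000044221.14, chromosome 5, 88659233 to 88676171), whose product binds G-rich sequences in mitochondrial RNA granules, had 1955, 2017 and 2004 normalised counts in knockout 492, 499 and 501, against 1953, 1990 and 2053 in control 490, 498 and 502. The highest library was 1.05-fold above the lowest. Its log2 fold change was -0.0051 (SE 0.050, limma adjusted p = 1.00), with a 95% interval from -7.50% to 7.35%. Leaving out knockout 492 (0.0083) or control 502 (0.014) turned the sign, as did scaling to equal totals without mtDNA features (0.022). GRSF1 is known to work with the degradosome, and Grsf1 over Supv3l1 had a log2 ratio of 2.51 ± 0.15 in knockout and 2.46 ± 0.090 in control libraries, a difference of 0.042 (exact permutation p = 0.8, adjusted 1.00). That difference was -0.044 without knockout 499 and -0.0046 without control 490.

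**Figure D3:**
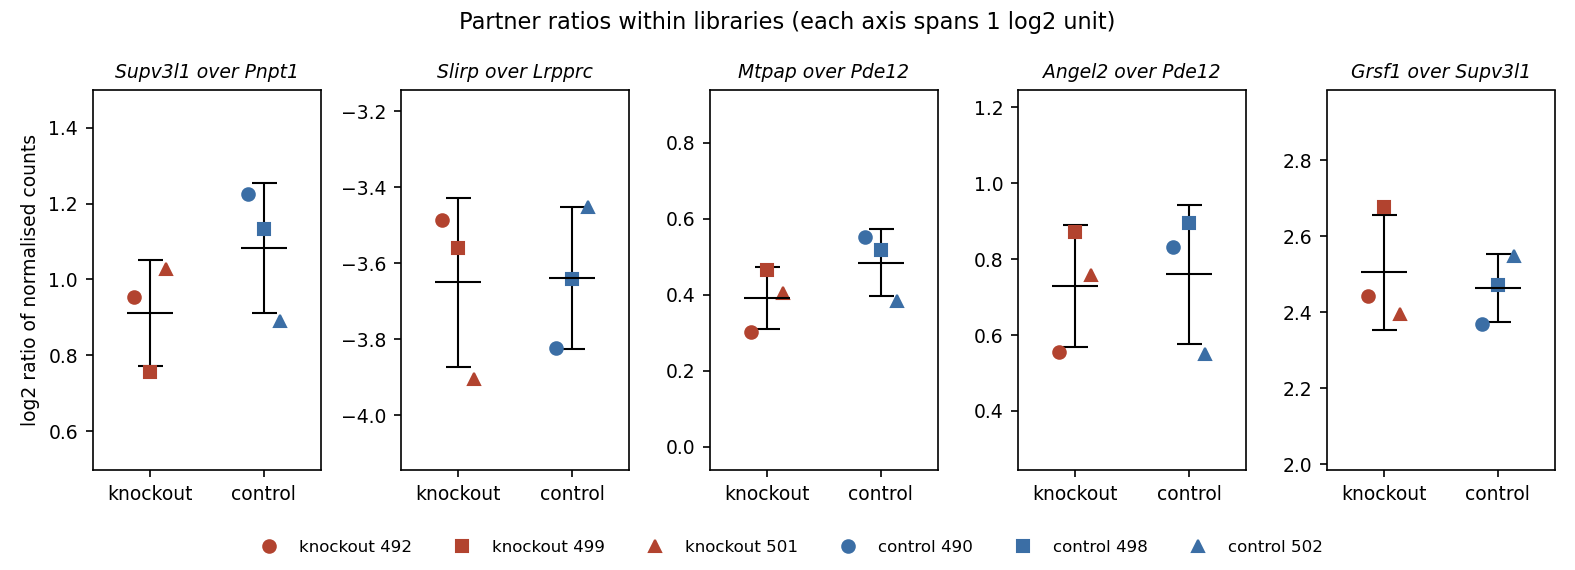
Log2 ratio of normalised counts (vertical axes, each spanning 1 log2 unit) of 5 gene pairs in the 3 knockout and 3 control libraries, with black marks at the mean and bars of 1 SD. The largest difference between group means is that of Supv3l1 over Pnpt1, -0.17, and the groups overlap in all 5 panels.

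The spread of these genes was set beside counting error. The relative SD over all 6 libraries was below the counting error of the mean read number for 4 of the 10 genes, among them Grsf1 (1.92% against 2.23%) and Mtpap (2.73% against 4.93%). It was above counting error for the other 6, and by the widest margin for Rexo2, at 11.0% against 5.64%. This spread includes the difference between the groups. Within groups the relative SD of Rexo2 was 6.94% in knockout and 11.3% in control libraries. The increase that a gene needed for an unadjusted p of 0.05 ran from 7.73% for Grsf1 to 23.7% for Slirp, with 16.1% for Rexo2. Smaller differences could not reach that unadjusted p at this depth and number of libraries. An adjusted p under 0.05 over all tested features needs larger ones. In simulated data of 18250 genes, limma called 8% of 1.2-fold and 72% of 1.5-fold changes at that threshold, with 12 false calls. The 0 calls among the 10 genes therefore do not by themselves exclude changes of these sizes. The 95% intervals from limma were narrower, from 0.764-fold at the lowest (Rexo2) to 1.28-fold at the highest (Pnpt1). A 1.5-fold change lay outside the intervals of all 10 genes. A 1.2-fold increase lay inside those of Pnpt1, Pde12 and Slirp, and a 1.2-fold decrease inside those of Rexo2 and Slirp. Levels of different genes were not ranked, because no transcript lengths were at hand.

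**Figure D4:**
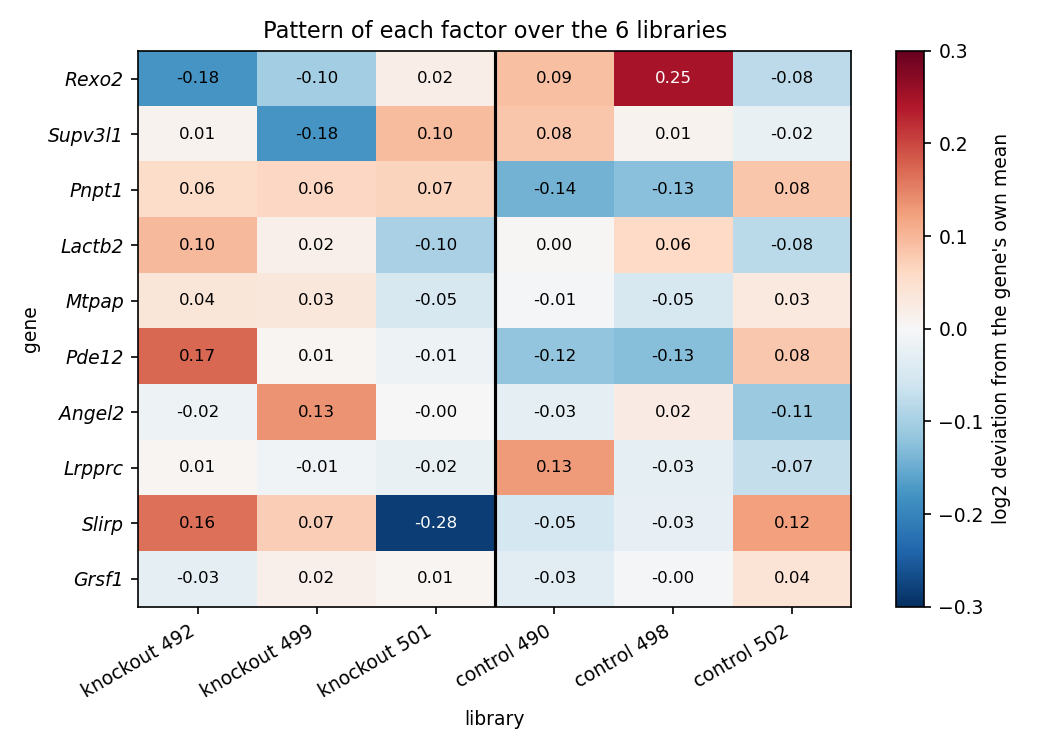
Log2 deviation of each gene (rows) from its own mean in each library (columns, knockout left of the black line), with the colour scale from -0.3 to 0.3. The largest deviations are -0.28 for Slirp in knockout 501 and 0.25 for Rexo2 in control 498, and no gene keeps 1 colour through a group and the other colour through the other.

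The pattern of Rexo2 over the 6 libraries was not shared closely by the other 9 genes. Likeness was measured as the root mean square difference of log2 deviations from each gene's own mean. Among 10710 protein-coding genes with a mean of at least 50 counts, Supv3l1 came nearest of the 9, at 0.13 and rank 1824, and Slirp was farthest, at 0.25 and rank 9352. The measure mixes the size of deviations with their direction, so these ranks do not measure shared direction. Grsf1, nearly flat at 1.05-fold between its highest and lowest library, lay at 0.15 and rank 2931. The 5 nearest genes of all were Fam204a (0.034), Rad9a (0.036), U2af1 (0.038), Ufsp2 (0.039) and Larp7 (0.041). Fam204a had 129, 135 and 148 normalised counts in knockout 492, 499 and 501, against 154, 172 and 147 in control 490, 498 and 502, so it was also highest in control 498 and lowest in knockout 492. With so many genes over 6 libraries, near matches describe these libraries only.

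Other genes of RNA decay were followed in 6 lists, of which 85 of 87 genes passed the filter; the other two, Trex1 and Exosc6, were listed at 0. limma called 0 of the 85 higher and 0 lower. On recovered reads edgeR also called 0 of the 85, and DESeq2 called 0 of the 37 to which it gave an adjusted p. At an unadjusted p under 0.05, 3 were higher and 1 lower in knockout hearts, 4.71% of the 85 in all, against 3.7% of all tested features. The groups did not overlap in 12, or 14.1%, against 9.51% of all tested features. The median log2 fold change was -0.0038, with 42 genes above 0 and 43 below, beside a median of 0.00056 over all tested features.

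Of 17 factors of mitochondrial RNA granules and transcript stability, 0 were called and 0 had an unadjusted p under 0.05 (median -0.0085). Fastkd5, which acts on the processing of mitochondrial messenger RNAs, had 122, 124 and 121 normalised counts in knockout 492, 499 and 501, against 103, 101 and 112 in control 490, 498 and 502, without overlap. This was a log2 fold change of 0.22 (limma adjusted p = 1.00). Eral1, a chaperone of the small mitochondrial ribosomal RNA, had 243, 218 and 222 counts in knockout 492, 499 and 501, against 252, 265 and 243 in control 490, 498 and 502, also without overlap. The log2 fold change was -0.16 (limma adjusted p = 1.00).

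Among 8 other mitochondrial nucleases, 0 were called and 0 had an unadjusted p under 0.05 (median 0.0017). Endog, a nuclease of the intermembrane space, was at 374 ± 16.2 normalised counts in knockout and 397 ± 5.49 in control hearts (SD, n = 3 each). Its groups did not overlap, and the log2 fold change was -0.087. Mgme1, an exonuclease of mtDNA maintenance, was at 207 ± 35.7 in knockout and 229 ± 28.6 in control hearts, a log2 fold change of -0.15. Both had a limma adjusted p of 1.00.

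Rexo2 is a member of the DEDD superfamily of exonucleases, of which 14 of 15 other genes on the list were tested. limma called 0 of the 14, and 1 had an unadjusted p under 0.05, which 3.7% of all tested features had (median 0.031). That gene was Cnot8, a catalytic subunit of the cytosolic CCR4-NOT deadenylase. It had 473, 471 and 449 normalised counts in knockout 492, 499 and 501, against 411, 399 and 403 in control 490, 498 and 502, without overlap. A log2 fold change of 0.20 was estimated (SE 0.073, limma adjusted p = 1.00). Eri2, another exonuclease of the superfamily, was at 87.4 ± 11.5 in knockout and 69.7 ± 4.67 in control hearts, also without overlap. Its log2 fold change was 0.32 (limma adjusted p = 1.00).

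Of the 4 genes listed with the deadenylases as relatives of Pde12 and Angel2, 0 were called and 0 had an unadjusted p under 0.05 (median 0.032). The list rests on family membership and not on shown activity. Angel1, a paralog of Angel2, was at 84.7 ± 6.60 normalised counts in knockout and 69.1 ± 2.06 in control hearts (SD, n = 3 each), a log2 fold change of 0.29 without overlap (limma adjusted p = 1.00). Noct, a rhythmic gene, was at 628 ± 104 in knockout and 718 ± 171 in control hearts, a log2 fold change of -0.18 (limma adjusted p = 1.00). Control 490 held 914 counts of Noct, against 599 and 640 in control 498 and 502. Knockout 492, 499 and 501 held 609, 535 and 740.

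Cytosolic and nuclear RNA decay had 0 called of 33, with 2 higher and 1 lower at an unadjusted p under 0.05, which 3.7% of all tested features had (median -0.0038). Dcp1b, a decapping cofactor, was at 118 ± 8.76 normalised counts in knockout and 91.8 ± 3.71 in control hearts (SD, n = 3 each), a log2 fold change of 0.35. Edc4, a scaffold of decapping, was at 561 ± 8.86 in knockout and 633 ± 25.3 in control hearts, a log2 fold change of -0.17. The third was Exosc8, an exosome subunit named after its values were seen, with a log2 fold change of 0.39. All 3 had groups without overlap and a limma adjusted p of 1.00.

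Of 9 other poly(A) and terminal nucleotidyl polymerases, 0 were called and 0 had an unadjusted p under 0.05 (median -0.024). Trnt1, which adds the terminal CCA to transfer RNAs in mitochondria and cytosol, was at 362 ± 13.8 normalised counts in knockout and 323 ± 27.6 in control hearts (SD, n = 3 each), a log2 fold change of 0.16. Tut4, a terminal uridylyltransferase, was at 531 ± 51.8 in knockout and 480 ± 12.0 in control hearts, a log2 fold change of 0.14. Both had a limma adjusted p of 1.00.

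**Figure D5:**
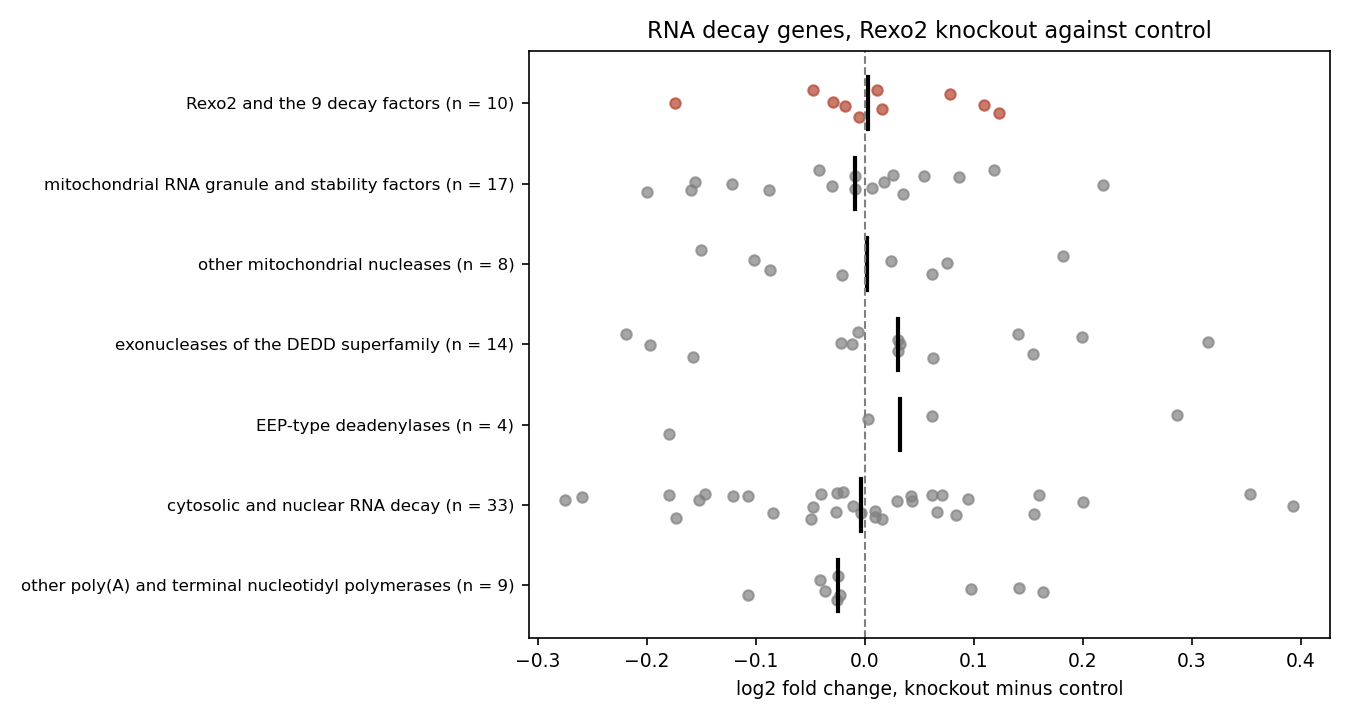
Log2 fold change (horizontal axis, knockout minus control) of the 10 genes (red) and of the tested genes of 6 other RNA decay lists (grey), with a black bar at each list's median; the vertical scatter within a list carries no meaning. The list medians lie between -0.024 and 0.032, and single genes between -0.27 and 0.39.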

How the data were processed

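The unit is signal: normalised read counts per gene, as the authors deposited them. The submitters' processing notes list DESeq2 1.22.2, R 3.5.2, featureCounts, bedtools and Bowtie2 2.3.4.1, and the builds GRCm38 and mm10, with no role for each. Whole reads were recovered from 100% of 156689 nonzero values (tolerance 0.01) by dividing each library by its smallest step. The authors' deposited comparison table holds log2 fold changes, a score (the test statistic) and p-value columns, used as given, with missing adjusted values kept missing. Column names give the group and a library number, not the replicate number of the labels. Ensembl identifiers were joined to symbols without their version; coordinates are RefSeq GRCm38, 1-based.

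log2(value + 1) of features with a mean of at least 10 was fitted with limma 3.58.1 (trended prior, genotype as the only term, 2-sided, Benjamini-Hochberg over all tested features at 0.05, R 4.3.3), after a test on simulated data. Ratios used exact permutation tests in SciPy 1.17.1. Alternatives covered the pseudocount, filter, scaling, moderation, edgeR 4.0.16, DESeq2 1.42.0, the authors' deposited table and each library left out in turn. Named are the 10 members, from each other list the called genes or else the 2 of smallest p, and the 5 genes nearest Rexo2. Members and lists were chosen with earlier results of these data known. Levels per transcript length could not be computed from the tables used here.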

Additional observations from a re-analysis of the deposited data

How the results depend on the processing

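Across 18 alternatives for each of the 10 genes, log2 fold changes ran from -0.26 to 0.20, no alternative called any gene to which it gave an adjusted p, and the smallest adjusted p was 0.576. Rexo2, Pnpt1, Pde12 and Angel2 kept their sign in all 18. Among the alternatives, changes of filter or of limma moderation cannot alter a fold change. DESeq2 on recovered reads and the authors' deposited table gave nearly identical fold changes. Equal totals turned Lactb2 (-0.058) and Mtpap (-0.054), and equal totals without mtDNA turned Lrpprc (0.0091) and Grsf1 (0.022). Leaving out 1 library gave ranges that cross 0 for Supv3l1 (-0.11 to 0.030), Lactb2 (-0.034 to 0.063), Mtpap (-0.0040 to 0.043), Lrpprc (-0.059 to 0.040), Slirp (-0.12 to 0.10) and Grsf1 (-0.022 to 0.014). The ratios ranged from -0.10 to 0.12 for Slirp over Lrpprc, from -0.14 to 0.056 for Angel2 over Pde12, from -0.27 to -0.093 for Supv3l1 over Pnpt1, from -0.14 to -0.049 for Mtpap over Pde12 and from -0.044 to 0.097 for Grsf1 over Supv3l1. The cause was not tested. limma called 4 of all features, all lower. It called 12 (11 lower) with no filter, 37 (36 lower) under equal totals, 0 without a trend and 12 (10 lower) with robust moderation. DESeq2 on recovered reads called 33 (29 lower), as did the authors' deposited table, and leaving out 1 library gave 1 to 8 calls (1 to 7 lower). The count of 1 came without knockout 499, control 498 or control 502, and 8 without control 490. No other RNA decay gene with an adjusted p was called in any alternative. No paired analysis was possible because the table's columns carry library numbers and not the replicate numbers of the labels. The depth of Slirp and Pnpt1, the least covered genes, limits what could be detected for them.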
